A study of Mus musculus with 76 samples.

Results

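The genes described here are the collagen chain genes of the mouse, taken as every gene whose symbol in the array's probe-to-gene table is Col, a number, a and a number. They were 42 of the 20710 genes measured in microdissected lung tissue, and 72 array features named them. Where several features named 1 gene, the feature with the highest mean over all 76 arrays was kept. Of the 42 genes, 27 had 1 feature and 15 had several, with 10 features for Col4a1. A gene was counted as above background when its mean signal exceeded 3.99 log2 units, the 95th percentile of the 1324 odorant and vomeronasal receptor genes on the array, a family with little known activity in lung. By that measure 23 of the 42 chains were above background over all arrays, 22 in septa and 25 in vessels, and 16 were above it in neither tissue.

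Collagens are secreted proteins in which chains wind around each other as a triple helix, and each collagen type is built from a fixed set of chains. Fibrillar collagens (types I, II, III, V, XI, XXIV and XXVII) include those that form the tensile fibres of the vessel wall and airway, while types II and XI are known from cartilage. Type IV chains form the sheet of basement membranes, in which the alpha1 and alpha2 chains occur in nearly all tissues, the alpha3, alpha4 and alpha5 chains make a network known from the glomerulus and alveolus, and the alpha5 and alpha6 chains occur together in the basement membrane around smooth muscle. FACIT collagens lie on fibril surfaces, type VI makes beaded filaments, type VII anchors epithelium to the matrix below it, and the multiplexins XV and XVIII sit at basement membranes. Loss and remodelling of this matrix are features of emphysema and pulmonary hypertension, which the study modelled with cigarette smoke.

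The study used 40 mice, from which lung septa and vessels were microdissected and hybridised singly to single-colour arrays. Every label carries the line C57BL/6-Noxo1(tm1881_17.2Arte). Mice were knockout or wild-type for Noxo1, which encodes an organiser protein needed by the superoxide-producing enzyme Nox1, and the labels state no Cre driver and no restriction of the deletion to a tissue. They were kept as controls or exposed from week 12 to smoke of research cigarettes at 140 mg of particles per cubic metre, 5 days per week with 6 hours of exposure daily, and were taken at 3 or 8 months. The protocol text names only the 8 months of exposure, so that the 3 months rest on the sample titles. Genotype, exposure, tissue and time made 16 groups of 4 or 5 mice, with 39 septa arrays and 36 vessel samples after the 2 vessel arrays of mouse 25 were averaged, and 35 mice gave both tissues. Values are log2 signals as deposited.

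Signals between arrays of a tissue correlated more closely in septa (median correlation of an array with the others 0.897 to 0.935) than in vessels (0.801 to 0.882). Markers differed between the tissues in the direction of the labels. All 7 smooth muscle genes were higher in vessels, and all 6 type 1 and all 6 type 2 pneumocyte genes were lower there. Type 2 signal was still high in vessels, with a median sum of 14.5 log2 units against 15.3 in septa. On average none of 7 chondrocyte or 4 mesothelium genes was above background in either tissue. Single vessel samples reached a chondrocyte sum of 8.31 (median 5.71) and a mesothelium sum of 10.3 (median 4.35). Noxo1 itself was not above background on average. In septa it lay between 1.39 and 5.57 (median 3.43) in 19 wild-type mice and between 1.45 and 3.76 (median 2.37) in 20 knockout mice. The difference of -1.31 ± 0.32 (SE) had an unadjusted p of 0.00017 and an adjusted p of 1.00 (limma). The ranges of the genotypes overlapped. In vessels it lay between 1.96 and 6.69 (median 3.76) in wild-type and between 1.60 and 7.03 (median 2.90) in knockout mice, so that the highest value belonged to a sample labelled knockout. The vessel difference was -0.84 ± 0.47 with an unadjusted p of 0.086 (limma). Xist and Y-linked genes gave a female pattern in septa of 4 of 19 control mice but of 10 of 20 mice exposed to smoke, and on vessel arrays in 3 of 19 and 9 of 18. The exposure groups thus differed in this pattern. In 2 of the 35 mice with both tissues, mice 7 and 29 (both 8-month controls), the pattern differed between septa and vessels, and each result that changed without them is given with its value below.

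Promoter windows of the chains were available from RefSeq (GRCm38.p6) for 34 of the 42 genes, as the 250 bases upstream of each annotated start. The 6 shown here belong to chains on which the results turn, namely the neighbouring, oppositely read pair Col4a5 and Col4a6, 2 fibrillar chains and Col18a1 that were all higher in vessels, and Col7a1, which was higher in septa. Only bases outside annotated gene spans are printed, in lower case with the motifs CCAAT and GGGCGG (each on both strands, so also ATTGG and CCGCCC) and TATAAA in capitals. Positions are Col4a5 chrX:141475169-141475369 (plus strand), Col4a6 chrX:141474096-141474326 (minus strand), Col1a2 chr6:4505368-4505617 (plus strand), Col3a1 chr1:45311288-45311537 (plus strand), Col18a1 chr10:77166531-77166780 (minus strand) and Col7a1 chr9:108953336-108953585 (plus strand).
Col4a5: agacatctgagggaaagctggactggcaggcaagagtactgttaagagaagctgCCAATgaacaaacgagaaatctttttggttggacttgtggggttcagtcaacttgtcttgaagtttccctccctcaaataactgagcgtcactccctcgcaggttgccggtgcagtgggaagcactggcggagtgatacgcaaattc
Col4a6: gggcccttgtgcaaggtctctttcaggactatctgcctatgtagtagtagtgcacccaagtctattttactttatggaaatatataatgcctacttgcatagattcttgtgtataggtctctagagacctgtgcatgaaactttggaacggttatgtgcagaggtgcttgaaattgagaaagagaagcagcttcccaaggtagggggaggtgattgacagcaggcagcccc
Col1a2: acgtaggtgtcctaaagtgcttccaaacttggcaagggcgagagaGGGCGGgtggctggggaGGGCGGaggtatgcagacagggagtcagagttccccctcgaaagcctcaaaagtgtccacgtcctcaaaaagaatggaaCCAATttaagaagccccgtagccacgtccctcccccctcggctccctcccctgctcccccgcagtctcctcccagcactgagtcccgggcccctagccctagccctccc
Col3a1: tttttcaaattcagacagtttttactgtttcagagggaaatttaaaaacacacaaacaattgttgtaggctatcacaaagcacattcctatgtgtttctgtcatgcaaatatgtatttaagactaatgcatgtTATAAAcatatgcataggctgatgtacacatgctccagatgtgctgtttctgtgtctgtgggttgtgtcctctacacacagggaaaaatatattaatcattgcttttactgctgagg
Col18a1: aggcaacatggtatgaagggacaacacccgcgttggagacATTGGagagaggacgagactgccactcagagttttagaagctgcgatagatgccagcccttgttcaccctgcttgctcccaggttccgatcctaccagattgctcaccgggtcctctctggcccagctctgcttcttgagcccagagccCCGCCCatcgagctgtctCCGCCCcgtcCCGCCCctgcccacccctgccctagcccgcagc
Col7a1: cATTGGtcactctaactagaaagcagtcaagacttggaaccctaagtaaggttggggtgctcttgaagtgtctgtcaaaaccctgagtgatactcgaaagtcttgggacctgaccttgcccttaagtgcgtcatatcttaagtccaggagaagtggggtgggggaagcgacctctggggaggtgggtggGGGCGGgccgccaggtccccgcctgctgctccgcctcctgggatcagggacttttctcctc
Over whole windows, CCAAT occurred in 13 of the 34 chains against 33.8% of all 32851 windows in the table, GGGCGG in 21 of 34 against 32.7%, and TATAAA in 5 of 34 against 12.4%. The CArG box, a motif known from smooth muscle genes, occurred in 1 chain, Col6a4, against 1.47% of all windows, and Col6a4 was not above background. These are matches of letters and not measured binding sites.

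Vessels and septa differed in 23 of the 42 chains after adjustment over all genes, 15 higher in vessels and 8 lower, against 29% of all genes tested (12.7% higher and 16.4% lower). The median vessel minus septa difference of the 42 chains was 0.19 log2 units, against 0.02 over all genes. Of the 23 chains above background 19 were called, 12 higher and 7 lower, against 40.7% of all genes above background. The median difference of these 23 chains was 0.49, against -0.16 over all genes above background. Bulk signal cannot tell apart a tissue with fewer cells of a type from one with less RNA per cell. By class, 6 fibrillar chains were higher and none lower, while the basement membrane chains split into 2 higher and 4 lower, as the plot of differences by class shows.

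**Figure D1:**
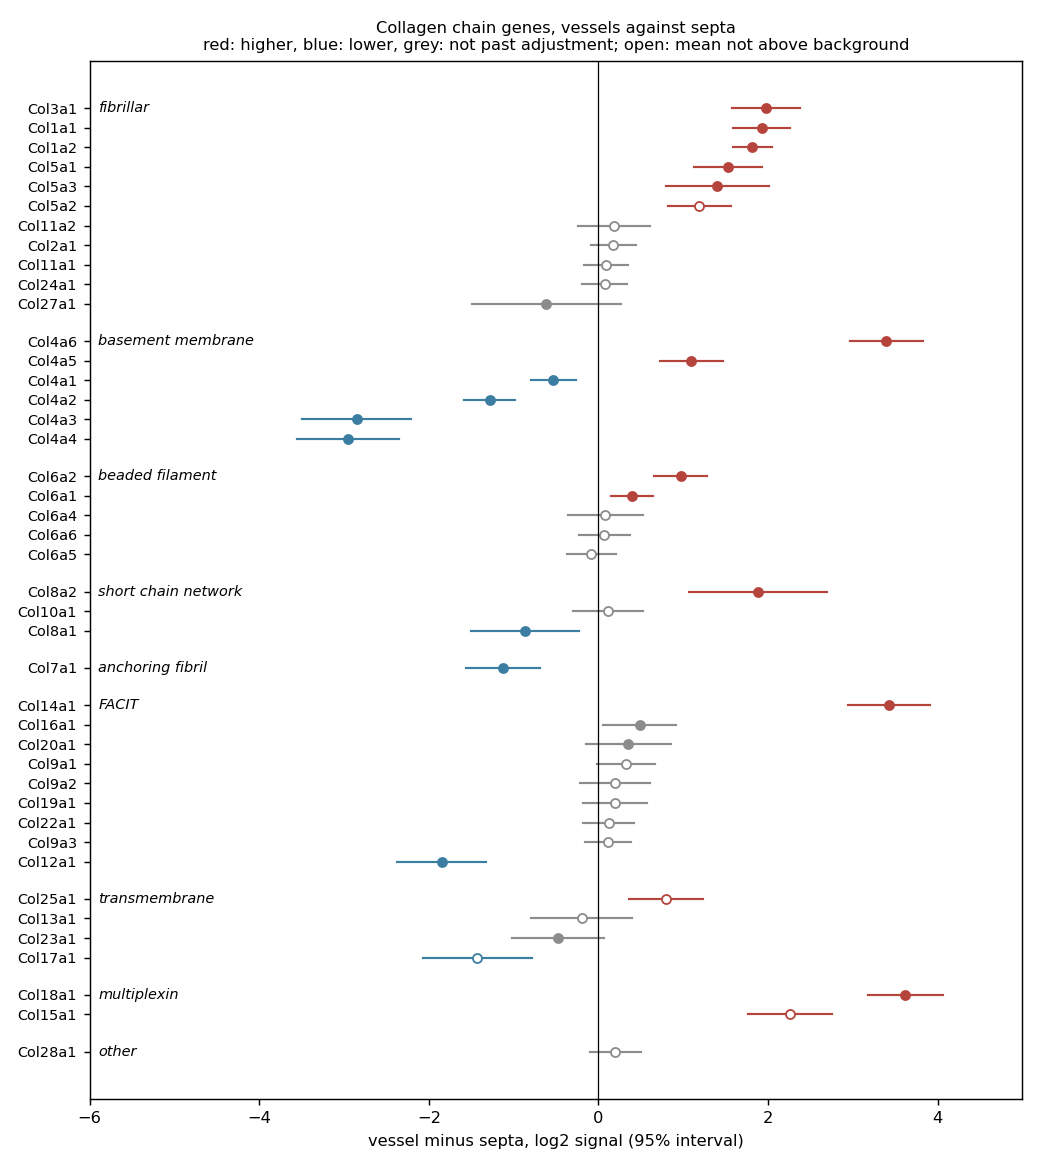
Difference in log2 signal between vessels and septa for each of the 42 collagen chain genes, ordered by class, with 95% intervals from the limma fit over 75 samples. Filled circles are the 23 genes above background; Col18a1 (3.62), Col14a1 (3.43) and Col4a6 (3.39) lie farthest to the right and Col4a4 (-2.95) and Col4a3 (-2.85) farthest to the left.

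All 6 type IV chains differed, and in opposite directions. Col4a6 ranged from 1.32 to 6.81 (median 5.52) in septa and from 7.05 to 9.36 (median 8.76) in vessels. The tissues did not overlap for Col4a6, which was true of no other chain. The share of all genes without such overlap was not counted. The Col4a6 difference was 3.39 ± 0.22 log2 units (SE), a 10.5-fold difference in signal, and Col4a6 was higher in vessels in 35 of 35 mice. Its partner Col4a5, which combines with it around smooth muscle and with alpha3 and alpha4 elsewhere, ranged from 2.57 to 7.54 (median 6.06) in septa and from 5.56 to 8.76 (median 6.99) in vessels. The tissues overlapped widely for Col4a5, whose difference of 1.09 ± 0.19 held in 31 of 35 mice.

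The alpha3 and alpha4 chains went the other way. Col4a3 ranged from 6.52 to 9.21 (median 8.50) in septa and from 1.25 to 8.15 (median 5.96) in vessels. Vessels ran from below the background level up into the septal range. Col4a3 was lower in vessels by -2.85 ± 0.32 and in 35 of 35 mice. Col4a4 ranged from 7.10 to 9.67 (median 8.42) in septa and from 1.69 to 8.46 (median 5.94) in vessels, again with vessels spread from background into the septal range. Its difference was -2.95 ± 0.30, seen in 34 of 35 mice. Both were above background in all 39 septa arrays, and in 26 (Col4a3) and 27 (Col4a4) of 36 vessel samples.

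The widespread alpha1 and alpha2 chains were also lower in vessels, by smaller amounts than Col4a3 and Col4a4. Col4a2 ranged from 8.19 to 10.40 (median 9.29) in septa and from 5.34 to 9.80 (median 7.99) in vessels, and was lower there by -1.28 ± 0.15. Col4a1 ranged from 8.45 to 10.12 (median 9.43) in septa and from 7.43 to 10.06 (median 8.85) in vessels, with nearly complete overlap. Its difference was -0.53 ± 0.13, and over its 10 features the difference lay between -0.76 and -0.53. Those features correlated at 0.87 to 0.97 with each other across arrays, and differed within an array by an SD of 0.186 (median).

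Between tissues, type 1 pneumocyte genes differed in the same direction as Col4a3 and Col4a4, and smooth muscle genes in the same direction as Col4a6. The summed signal of 6 type 1 markers had a median of 13.9 log2 units in septa (13.5 to 14.3) and 12.0 in vessels (10.5 to 13.2). That of 7 smooth muscle markers had a median of 11.0 in septa (9.76 to 11.9) and 16.0 in vessels (14.4 to 16.4). Other markers moved as well. Higher in vessels were 3 of 4 ciliated cell, 3 of 4 adipocyte and 3 of 5 pericyte genes (12.7% of all genes). Of 5 capillary genes 4 were lower (16.4% of all genes). Fibroblast genes split into 3 higher and 3 lower, and their sum had a median of 13.5 in septa (13.0 to 14.0) and 13.0 in vessels (12.3 to 13.8). The part of these markers in the collagen differences was not tested. Second features of Col4a4 (-1.78) and Col4a6 (1.09) had the same sign and a smaller size, and the 2 Col4a6 features correlated at only 0.357.

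**Figure D2:**
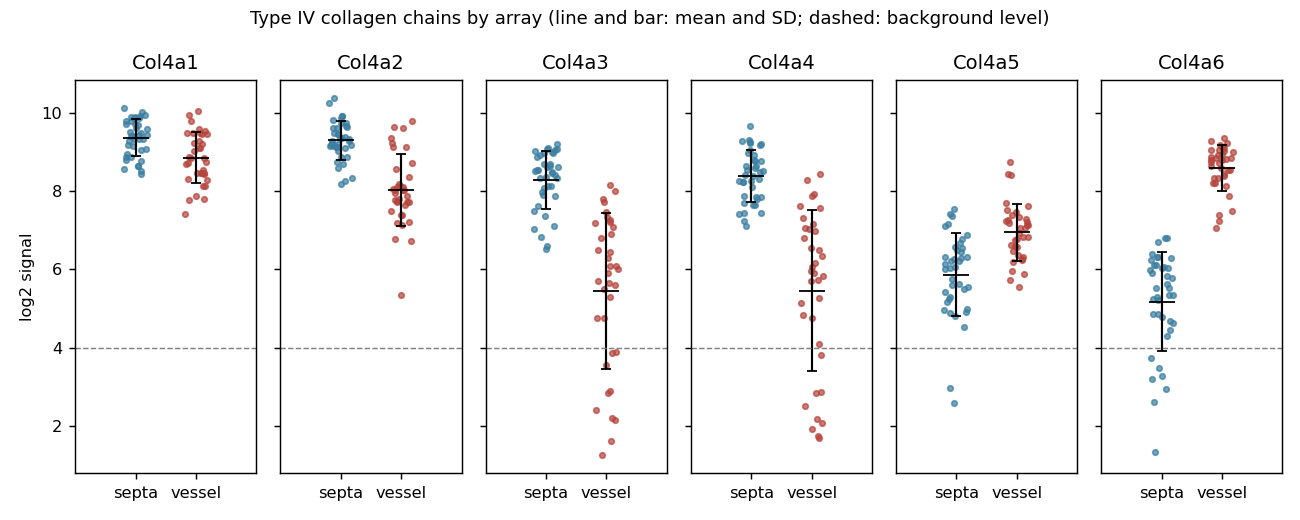
Log2 signal of the 6 type IV collagen chains on each of 39 septa arrays and 36 vessel samples, with mean and SD as line and bars and the background level of 3.99 as a dashed line. Col4a6 is higher in every vessel sample than in any septa array, while Col4a3 and Col4a4 are tight in septa and run down to background in vessels.

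Of 11 fibrillar chains, 6 were higher in vessels (12.7% of all genes), 5 did not pass the test and none was lower (16.4% of all genes). Col1a1 and Col1a2, the chains of type I collagen, and Col3a1, the single chain of type III, led. Col1a1 ranged from 6.99 to 10.12 (median 8.92) in septa and from 9.59 to 12.28 (median 10.55) in vessels. The ranges shared only the stretch from 9.59 to 10.12, and the difference of 1.92 ± 0.17 was positive in 35 of 35 mice. Col1a2 had a median of 10.22 (8.78 to 11.38) in septa and 12.05 (11.09 to 13.17) in vessels, a difference of 1.82 ± 0.11 that was positive in 35 of 35 mice. Col3a1 had a median of 8.01 (5.00 to 9.40) in septa and 9.62 (7.75 to 11.07) in vessels, with more overlap, and differed by 1.98 ± 0.20 in 34 of 35 mice. Type V chains, which start and limit the fibrils of type I, followed with Col5a1 at 1.52 ± 0.20 and Col5a3 at 1.40 ± 0.30, whose mean was below background in septa. Col5a2, the alpha2 chain of type V, differed by 1.19 ± 0.19, but neither tissue was above background on average. Col27a1, the other fibrillar chain above background, gave -0.61 ± 0.44 and did not pass (adjusted p = 0.32). The cartilage chains Col2a1, Col11a1 and Col11a2 and Col24a1 were not above background.

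Among the remaining classes, Col18a1, whose C-terminal fragment is endostatin, showed the largest mean difference of all chains, although its ranges overlapped. It ranged from 1.14 to 7.00 (median 4.72) in septa and from 6.32 to 9.42 (median 8.23) in vessels. The difference was 3.62 ± 0.22, in 35 of 35 mice, and a second feature gave 3.24. Col15a1, the other multiplexin, differed by 2.26 ± 0.25 but was above background only in vessels. The FACIT chain Col14a1, an interfibrillar partner of type I, ranged from 1.49 to 4.91 (median 3.39) in septa and from 2.37 to 8.40 (median 7.05) in vessels. On average it was below background in septa, and its difference of 3.43 ± 0.24 was positive in 35 of 35 mice. A second Col14a1 feature, not above background, gave 1.47.

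Col12a1, another FACIT chain, was lower in vessels by -1.85 ± 0.26 (septa median 7.60, vessel median 5.86) and in 31 of 35 mice. Col7a1, the anchoring fibril chain, was lower by -1.13 ± 0.22, and Col17a1, a hemidesmosome protein of epithelium, by -1.43 ± 0.32 from a mean above background in septa only. The type VI chains Col6a2 (0.97 ± 0.16) and Col6a1 (0.40 ± 0.12) were higher in vessels. The short chains of type VIII split, with Col8a2 higher by 1.88 ± 0.41 and Col8a1 lower by -0.87 ± 0.32. The Col8a1 call (adjusted p = 0.033) was lost without mice 7 and 29 (adjusted p = 0.056), with cyclic loess (0.060), with mouse as a fixed factor (0.061) and when 1 of 5 vessel arrays was left out, namely replicate 3 of knockout controls at 3 months, replicate 4 of knockout and replicate 5 of wild-type controls at 8 months, replicate 1 of knockout and replicate 4 of wild-type smoke-exposed mice at 8 months (adjusted p up to 0.065). The transmembrane chain Col25a1 was higher by 0.80 ± 0.22, with a mean not above background over all arrays. Of the chains above background, Col16a1 (0.49 ± 0.22), Col20a1 (0.35 ± 0.25) and Col23a1 (-0.47 ± 0.27) did not pass either. The other 15 chains, not above background, gave differences from -0.20 to 0.32. Taking the mean of all features of a gene in place of 1 feature left each call in place. It moved Col4a4 to -1.85, Col4a6 to 2.24, Col14a1 to 2.45, Col15a1 to 1.87, Col8a2 to 1.04 and Col25a1 to 0.36.

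In the 8 strata of genotype, exposure and time, 19 of the 23 called chains had the same direction in every stratum, and Col5a3, Col25a1, Col6a1 and Col17a1 in 7 of 8. The chains were called on the mean over these same strata, so this agreement is not separate support. The share among all called genes was not counted. Of 8 pairs of chains that are neighbours in RefSeq, 5 had both members called in the same direction (Col3a1 and Col5a2, Col4a3 and Col4a4, Col6a1 and Col6a2, Col4a1 and Col4a2, Col4a5 and Col4a6). In the other 3 neither was called, and all their chains were not above background. The share among all neighbouring gene pairs was not counted, so the 5 pairs show no more than their own directions. Gene spans of Col4a1 and Col4a2, and of Col4a3 and Col4a4, overlap at their starts.

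Spread between mice also differed by tissue and by chain. The within-group SD of the 23 chains above background had a median of 0.908 log2 units in septa and 1.05 in vessels, and was larger in vessels for 15 of them, against 87.7% of all genes above background. Col4a3 (0.672 in septa, 2.01 in vessels) and Col4a4 (0.551 and 1.90) were far more variable in vessels. Col1a1 (0.948 and 0.451), Col4a6 (1.17 and 0.592) and Col18a1 (1.15 and 0.671) varied more in septa, the tissue in which each was lower. This did not hold for every chain. Col8a2 (1.45 and 2.23), Col5a1 (0.788 and 1.05), Col6a2 (0.547 and 0.855) and Col14a1 (0.961 and 1.10) were also lower in septa but varied more in vessels.

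**Figure D3:**
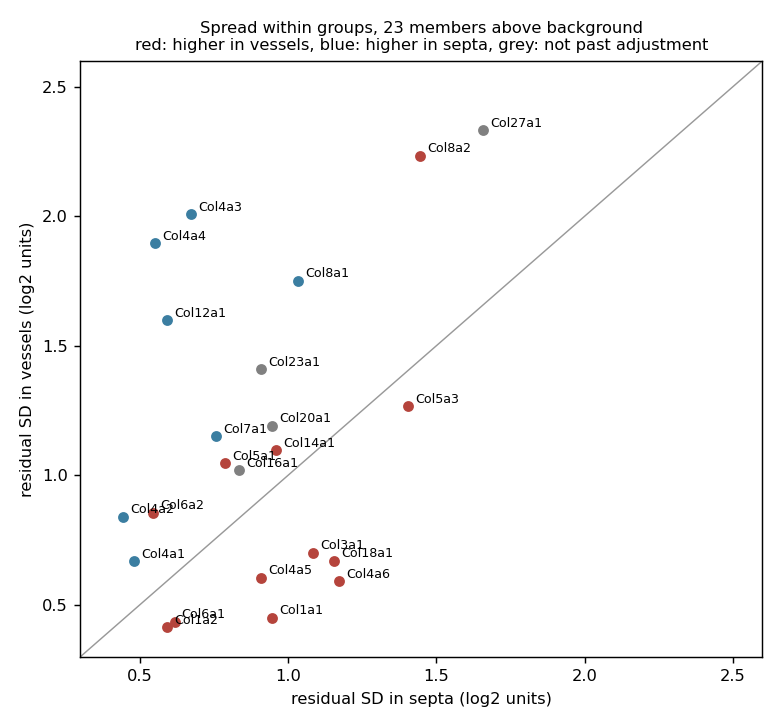
Within-group SD of log2 signal in septa (x axis) against vessels (y axis) for the 23 chains above background, with the line of equal SD. Col4a3 and Col4a4 lie far above the line, while Col1a1, Col4a6 and Col18a1 lie below it.

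Chains of 1 collagen type did not all vary together. Within groups, Col1a1 and Col3a1 correlated at 0.699 (Spearman 0.702) over 39 septa and 0.77 (0.665) over 36 vessel samples, with permutation p adjusted over the 26 relations of 0.0027 and 0.0023. Col1a1 and Col1a2 correlated at 0.518 (Spearman 0.534) and 0.633 (0.505), with adjusted permutation p of 0.017 and 0.017. Leaving out the 2 most distant samples left these at 0.659 and 0.698, and at 0.438 and 0.448. By contrast, Col4a1 and Col4a2 correlated at 0.207 in septa and 0.035 in vessels, Col6a1 and Col6a2 at 0.15 and 0.162, Col4a5 and Col4a6 at 0.076 and -0.103, and Col8a1 and Col8a2 at -0.048 and 0.02, with Spearman values between -0.125 and 0.198 and no adjusted permutation p under 0.37. Col4a3 and Col4a4 correlated at 0.178 in septa and 0.44 (Spearman 0.537) in vessels, where the adjusted permutation p was 0.028. In vessels, Col4a3 and Col4a4 also correlated with the summed type 1 pneumocyte markers, at 0.547 and 0.521 (Spearman 0.566 and 0.585, adjusted permutation p 0.0074 and 0.016). In septa the same 2 relations did not pass, at 0.361 and 0.188 (Spearman 0.353 and 0.08, adjusted permutation p 0.15 and 0.54). Col18a1 correlated with the smooth muscle sum at 0.541 in vessels (Spearman 0.494, adjusted permutation p 0.017) and 0.404 in septa (Spearman 0.408, adjusted permutation p 0.050). Leaving out the 2 most distant samples left the vessel values of Col4a3, Col4a4 and Col18a1 at 0.494, 0.54 and 0.479. It left the septa value of Col18a1 at 0.375. Col4a6 with the smooth muscle sum (0.215 in septa, 0.26 in vessels), and Col1a1 (-0.202 and -0.065) and Col3a1 (-0.396 and 0.086) with the fibroblast sum, had adjusted permutation p of 0.053 or more. Over all 253 pairs of chains above background, 8 in septa (3.16%) and 11 in vessels (4.35%) correlated above 0.5, against 0.937% and 0.672% of all pairs of genes above background. All these correlations share the same arrays.

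Time changed few chains. Between 3 and 8 months, 1 of 42 chains passed in septa, against 3.5% of all genes, and 1 in vessels, against 1.27%. In septa it was Col6a2, a chain of type VI collagen, whose beaded filaments link cells to the matrix. It ranged from 9.23 to 10.83 (median 10.22) in 19 arrays at 3 months and from 7.99 to 10.78 (median 9.42) in 20 arrays at 8 months. The ranges overlapped, and the difference was -0.78 ± 0.17 (adjusted p = 0.0039). It passed without mice 7 and 29 but not in 1 fit over both tissues (adjusted p = 0.055). In smoke-exposed septa Col6a2 fell by 0.94 ± 0.23 (adjusted p = 0.039), against 0.695% of all genes called, and in control septa the change was -0.62 ± 0.24 and no chain passed, against 0.478%, with 7 of 42 at an unadjusted p under 0.05 against 10.7% (limma). The 2 changes differed by -0.33 ± 0.33 (adjusted p = 0.95), a test added after the values were seen. The smoke-exposed call was lost when any 1 of 11 of the 39 septa arrays was left out (adjusted p up to 0.083), and in 1 fit over both tissues (0.28). It was kept with sex pattern as a covariate. In smoke-exposed septa the female pattern was seen in 3 of 10 mice at 3 months and in 7 of 10 at 8 months.

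In vessels Col5a3, the alpha3 chain of type V collagen, fell by 1.70 ± 0.43 between 3 and 8 months (adjusted p = 0.040). It ranged from 2.50 to 8.58 (median 6.44) in 18 samples at 3 months and from 1.89 to 7.23 (median 3.95) in 18 at 8 months. In smoke-exposed vessels the 5 wild-type mice at 3 months had 6.17, 6.50, 6.65, 7.37 and 8.57 and the 5 knockout mice 5.76, 6.38, 6.68, 6.69 and 7.14. At 8 months the 4 wild-type mice had 1.89, 2.77, 3.38 and 4.76 and the 4 knockout mice 2.38, 3.26, 3.58 and 5.84. Of the 8 samples at 8 months, 7 were below every 3-month sample, a separation whose share among all genes was not counted. The difference was -3.31 ± 0.61 (adjusted p = 0.011), against 0.188% of all genes called, with the 8-month mean of 3.48 below background. In control vessels the 4 wild-type mice at 3 months had 5.50, 5.84, 5.91 and 6.53 and the 4 knockout mice 2.50, 3.29, 5.11 and 6.59, and the 8-month means were 4.77 in wild-type and 5.38 in knockout mice, with no chain past adjustment against 0.00483% of genes (3 of 42 at an unadjusted p under 0.05 against 8.41%, limma).

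The smoke and control changes in vessels were compared for Col5a3 after the values were seen. They differed by -3.23 ± 0.87, with an unadjusted p of 0.00069 but an adjusted p of 0.766, and no gene of the 20710 passed. With sex pattern as a covariate the vessel call was lost (adjusted p = 0.061), and so was the smoke-exposed vessel call (0.072). Without mice 7 and 29 the vessel adjusted p was 0.066, and the call was lost when any 1 of 19 of the 37 vessel arrays was left out (adjusted p up to 0.075). The smoke-exposed vessel call was kept with each array left out (adjusted p from 0.0073 to 0.037). In smoke-exposed vessels the female pattern was seen in 3 of 10 samples at 3 months (0 of 5 wild-type, 3 of 5 knockout) and in 6 of 8 at 8 months (3 of 4 in each genotype).

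Col6a2 also came close in vessels, at -0.97 ± 0.26 with an adjusted p of 0.053, which did not pass. Summed type 1, smooth muscle, fibroblast, capillary and pericyte markers overlapped between 3 and 8 months in each tissue, which is no test of a shift. In septa the pericyte sum had a median of 10.9 (10.3 to 11.6) at 3 months and 10.3 (9.90 to 11.1) at 8 months. In vessels its medians were 11.2 and 11.2. The part of these markers in the changes over time was not tested. Col1a1 was 0.45 ± 0.15 higher at 8 months in vessels and Col1a2 and Col1a1 were higher by 0.68 ± 0.19 and 0.74 ± 0.22 in smoke-exposed vessels, none past adjustment (adjusted p from 0.13 to 0.14). In septa Col4a4 (-0.58 ± 0.18, adjusted p = 0.057) and Col4a5 (0.84 ± 0.29, adjusted p = 0.11) came next. The change with time differed between tissues for 0 of 42 chains, against 0.0386% of all genes (5 at an unadjusted p under 0.05, against 8.55%, limma).

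**Figure D4:**
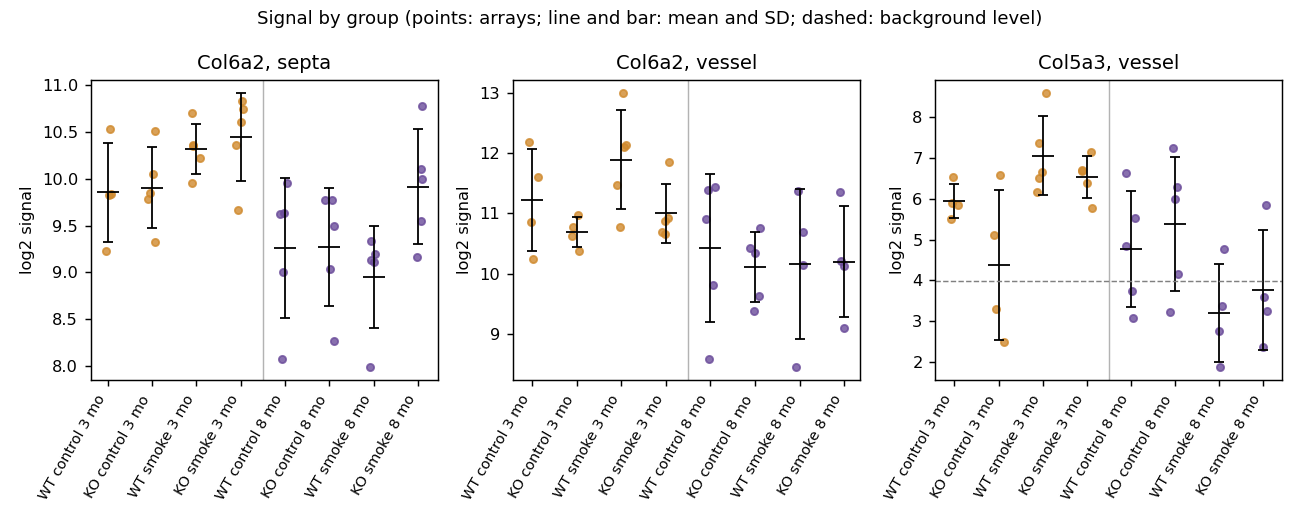
Log2 signal of Col6a2 in septa and vessels and of Col5a3 in vessels in the 8 groups of genotype, exposure and months, with one point for each array (WT, wild-type; KO, Noxo1 knockout), and mean and SD as line and bars. Col6a2 lies lower at 8 months in septa, and Col5a3 in smoke-exposed vessels ranges from 5.76 to 8.57 at 3 months and from 1.89 to 5.84 at 8 months.

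Smoke changed no chain that passed adjustment. In none of the 8 comparisons of smoke with control within genotype, tissue and time was any of the 42 chains called, and the background was 0% of all genes except in wild-type septa at 3 months (0.00483%, 1 gene). At an unadjusted p under 0.05 (limma), wild-type septa had 5 chains at 3 months (5.09% of genes) and 1 at 8 months (5.79%), and knockout septa 2 (3.54%) and 1 (6.55%). Wild-type vessels had 3 at 3 months (6.12%) and 1 at 8 months (2.94%), and knockout vessels 2 (6.2%) and 2 (4.3%). Averaged over genotype and time, 0 chains were called in septa (0% of genes) and 0 in vessels (0%). At an unadjusted p under 0.05, 5 of 42 chains passed in septa against 7.7% of all genes and 2 in vessels against 5%. In septa the lowest p was that of Col4a6, at -1.10 ± 0.37 (adjusted p = 0.55), and in vessels that of Col18a1, at -0.64 ± 0.24 (adjusted p = 0.97). The 95% interval of the Col18a1 difference ran from -1.12 to -0.16, and of the Col4a6 difference from -1.84 to -0.36. With the mean of all its features the Col4a6 difference was -0.43.

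Col4a6 in wild-type septa at 3 months had the lowest p of that comparison. Control mice had 5.83, 6.05, 6.80 and 6.81 and smoke-exposed mice 2.61, 3.47, 4.29, 4.67 and 5.25, without overlap. The share of all genes without overlap in this comparison was not counted, and Col4a6 was picked here by its p. The difference was -2.31 ± 0.76, with an adjusted p of 0.78 (limma), and -1.03 with the mean of all features. Of these mice, 1 of the 4 control mice and 0 of the 5 smoke-exposed mice had the female pattern. Knockout septa gave -0.59 ± 0.72 for Col4a6 at 3 months, and the smoke by genotype difference over both times was 1.50 ± 0.73 (adjusted p = 1.00). The remaining chain of lowest p in each stratum moved by between -0.94 and 2.19: Col23a1 by 1.26 in wild-type septa at 8 months, Col7a1 by 1.25 and Col8a1 by 1.31 in knockout septa at 3 and 8 months, Col20a1 by 2.19 and Col4a1 by -0.94 in wild-type vessels at 3 and 8 months, and Col5a3 by 2.16 and Col1a1 by 0.71 in knockout vessels at 3 and 8 months. Adjusted p was 0.71 or more for each. With the mean of all features the Col23a1 difference was 0.09.

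**Figure D5:**
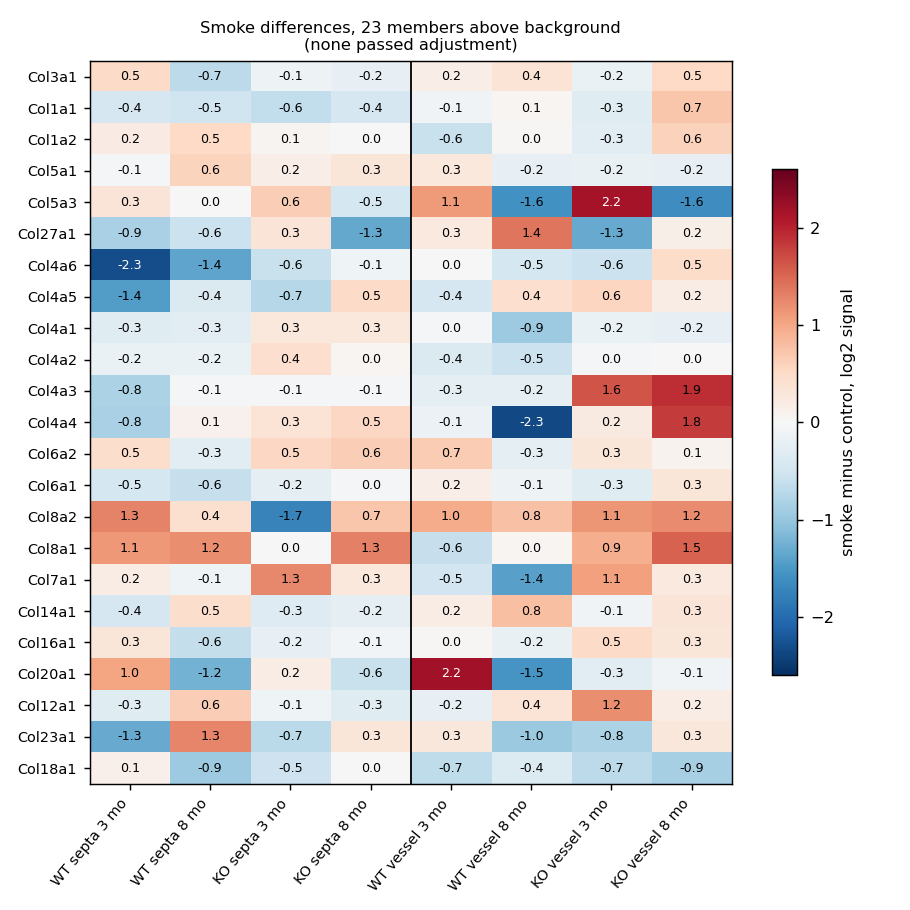
Smoke minus control difference in log2 signal for the 23 chains above background (rows, ordered by class) in the 8 strata of genotype, tissue and months (columns; WT, wild-type; KO, Noxo1 knockout). No cell passed adjustment; Col4a6 in wild-type septa at 3 months (-2.3) and Col20a1 in wild-type vessels at 3 months (2.2) are among the largest.

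Mice labelled knockout and wild-type differed in no chain past adjustment, in septa (0% of genes) or in vessels (0%). Unadjusted p under 0.05 was met by 1 chain in septa (3.98% of genes) and 2 in vessels (4.86%, limma). In septa this was Col9a1, not above background (0.58 ± 0.23, or 0.19 with the mean of all its features). In vessels Col4a2 ranged from 6.78 to 9.80 (median 8.15) in 18 wild-type and from 5.34 to 8.72 (median 7.81) in 18 knockout samples, with -0.78 ± 0.28 (adjusted p = 0.98), and Col4a5 differed by -0.63 ± 0.24 (adjusted p = 0.98). The smoke effect differed between genotypes for none of the chains in either tissue (0% of genes; 2 chains at an unadjusted p under 0.05 in septa against 3.8% and 2 in vessels against 4.38%, limma), and the lowest p were those of Col4a4 in septa (0.81 ± 0.36, or 0.17 with the mean of all its features) and Col9a2 in vessels. Between tissues the smoke effect differed for 0 chains (0.00966% of genes; 3 unadjusted against 6.33%) and the genotype effect for 0 (0% of genes; 4 unadjusted against 4.65%), where Col4a5 came lowest at -1.11 ± 0.37 (adjusted p = 0.94).

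Genes that make, bind, crosslink and degrade collagen showed the tissue contrast as well. Of 62 such genes, 61 were measured, and 18 were higher and 15 lower in vessels. Over all genes 12.7% were higher and 16.4% lower (29% in all), and of genes above background 40.7% were called. Decorin (Dcn), a proteoglycan that binds type I fibrils, was higher by 6.78 ± 0.27 and lumican (Lum) by 3.30 ± 0.43. The procollagen N-proteinase Adamts2 was higher by 2.73 ± 0.20 and the crosslinking enzyme Loxl1 by 2.11 ± 0.22, while Lox, of the same family, was lower by -0.61 ± 0.24 with an adjusted p of 0.049. Of 10 collagen receptors 4 were higher (12.7% of all genes) and 4 lower (16.4%), from Itga10 at 2.67 ± 0.26 to the uptake receptor Mrc2 at -1.68 ± 0.39. Of 9 genes of collagen degradation 3 were higher and 2 lower, against the same shares, from the protease inhibitor Timp1 at 3.00 ± 0.27 to the collagenase Mmp8 at -3.68 ± 0.39. The procollagen processing enhancer Pcolce2 was lower by -0.99 ± 0.13 and the prolyl hydroxylation cofactor Crtap higher by 1.28 ± 0.15.

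Over time, 4 of the 61 were higher and 2 lower at 8 months in septa, against 3.5% of all genes. The collagen receptor subunit Itga1 fell by 1.16 ± 0.19 and biglycan (Bgn) by 0.78 ± 0.16, while Mmp8 rose by 2.15 ± 0.39, periostin (Postn) by 0.88 ± 0.18, Fkbp14 by 0.82 ± 0.21 and P4ha2, a prolyl 4-hydroxylase subunit, by 0.58 ± 0.16. In vessels Mmp8 rose by 3.43 ± 0.69 and Timp3, an inhibitor of matrix proteases, by 1.00 ± 0.22, and these were the 2 of 61 that passed, against 1.27% of all genes. Smoke and genotype gave 0 of 61 in each tissue.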

How the data were processed

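Total RNA of microdissected septa and vessels was amplified and hybridised to single-colour arrays, per the labels' protocols. The authors' deposited values are log2 signals of 62976 features. Column medians of 3.19 to 3.192 show that they were normalised between arrays, by a method that no source used here names. The submitters' processing notes name limma. The submitters left 4 arrays without signal out.

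Features were named through the probe table (31465 with a symbol, 29050 of them matched to RefSeq), and 1 feature per gene was kept. Models were fitted with limma 3.58.1 in R 4.3.3 (group means, eBayes with trend) over all 20710 genes, per tissue for time, smoke and genotype and over 75 samples with mouse as a random block (correlation 0.0283) for tissue. Benjamini-Hochberg adjustment ran over all genes, at 0.05. Residual correlations were tested by 100000 permutations within groups (smallest p 1e-05). Deviations of same-numbered samples of a tissue correlated at 0.022 on average, with 25 of 251 pairs over 0.1, against -0.0055 and 29 of 980 for other numbers. Values over 0.1 were thus more frequent among same-numbered pairs, and what these samples shared was not tested. Numbers were not taken as pairs in the main fits, and a replicate block was among the alternatives. Alternatives were a probe mean, a low-signal filter at the 25th percentile, cyclic loess, array weights, blocks, sex pattern as a covariate and leaving out arrays. The members and lists were chosen with earlier results of these data known. Chains given values were the called ones and, where none was called, those of lowest p. Replicates are separate mice per the labels. Array number limits the precision. The fits were tested on simulated data. Figures were drawn with matplotlib 3.10.9.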

Additional observations from a re-analysis of the deposited data

Results flagged for a closer look

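Among 46 group values of 9 chains tested with Dixon's ratio, 3 had an end sample far from the rest, where chance flags about 1 in 20 groups. In wild-type smoke-exposed septa at 8 months 1 mouse had a Col6a2 signal of 7.99, with the next at 9.12 and the highest at 9.33, and 1 mouse had a Col23a1 signal of 3.63, with the next at 5.44 and the highest at 6.16. In knockout smoke-exposed vessels at 3 months 1 mouse had a Col6a2 signal of 11.85, with the next at 10.93 and the lowest at 10.65.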

How the results depend on the processing

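No count or named value reversed. The tissue count of 23 chains ran from 22 to 26 over 10 alternatives and was 23 with the replicate block, which changed no other call count. Leaving out 1 array at a time gave 22 to 24 for tissue. Between 3 and 8 months in septa, 2 chains passed with genes of low signal left out or with array weights, and 0 with 1 fit over both tissues. Leaving out 1 array gave 1 to 3. In smoke-exposed septa 0 passed with 1 fit over both tissues and 0 to 2 with 1 array left out. In vessels 2 passed with the low-signal filter, cyclic loess, both mouse 25 arrays kept or 1 fit, and 0 without mice 7 and 29 or with sex as a covariate, against 0 to 2 with 1 array left out. In smoke-exposed vessels 2 passed with 1 fit and 0 with sex as a covariate. Col6a2 in septa had an adjusted p of 0.055 with 1 fit (0.28 in smoke-exposed septa). The causes were not tested. Of the 42 chains, 19 were not above background, which limits what their differences show.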
